A study of Homo sapiens with 4 samples.

Results

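Crosslink sites in the last 100 nt of introns, just before the 3′ splice site (3′SS), were taken from individual-nucleotide crosslinking and immunoprecipitation (iCLIP) of the protein PDCD4 in wild-type MCF10A, a cell line of non-transformed human breast epithelium. A listed site was a member when its nucleotide lay in no annotated exon of its strand and within the last 100 nt of an intron of GENCODE release 44 (GRCh38), whatever its score. By this rule 4181 sites were members out of 270283 listed sites, 2631 of 158922 in the PDCD4 list and 1550 of 111361 in the IgG list. The samples were 2 replicates immunoprecipitated with PDCD4 antibody and 2 with control IgG from the same cells, all crosslinked with UVC light. The authors pooled the replicates of each immunoprecipitation into 1 list of sites 1 nt wide that had passed a false discovery rate filter, and a site's score is its raw cDNA count. With 1 pooled list per immunoprecipitation there is no spread between replicates, so no p-value was computed between PDCD4 and IgG, and the intervals given below are 95% intervals for counting error only. Neighbouring sites and the cDNAs of a site are not independent, which those intervals do not cover. A position that is not listed may still have been crosslinked, because sites below the filter are not in the lists.

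Introns end in a branch point adenosine, a polypyrimidine tract and an AG dinucleotide. The branch point is recognised by SF1 and then the U2 snRNP with its SF3B proteins, the tract by U2AF2 (U2AF65) and the AG by U2AF1 (U2AF35), while hnRNP and SR proteins compete for or assist these contacts. Intronic letters are found in pre-mRNA, retained introns and excised introns but not in mRNA spliced at that junction, except where the intronic letters are the same as those at the end of the upstream exon. PDCD4 is known as an inhibitor of the translation initiation factor EIF4A1. UVC crosslinking favours uridines whatever the protein, which is why base content is given beside that of annotated introns at the same distances and beside the IgG list.

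The sequences below are 29 nt of GRCh38, 5′ to 3′ on the transcribed strand, and each has the crosslinked nucleotide in capitals with 14 nt on either side. They show high-scoring members, with sites on the splice site itself (HSP90AB1 and CAPN15), in or beside the tract (ENSG00000283907, KRT7 and HCFC1) and further upstream (RAB11FIP5 and PLXNA3), followed by 3 of the IgG sites with a score of 6.
HSP90AB1 (PDCD4, score 7, 1 nt before the exon, chr6:44250276-44250304, plus strand): gtttttgttacttaGttggagaaggaacg
CAPN15 (PDCD4, score 6, 3 nt before the exon, chr16:536012-536040, plus strand): cccccccggttattCagacagggagccag
ENSG00000283907 (PDCD4, score 16, 5 nt before the exon, chr19:35575595-35575623, plus strand): ttgattactcgctcAtcagaccccagaaa
KRT7 (PDCD4, score 8, 19 nt before the exon, chr12:52248558-52248586, plus strand): cgctgaagagagccCtcctcttttctctc
HCFC1 (PDCD4, score 7, 25 nt before the exon, chrX:153960172-153960200, minus strand): agcctcccgcccctTctcaccaactgcgt
RAB11FIP5 (PDCD4, score 7, 88 nt before the exon, chr2:73081737-73081765, minus strand): ttatggcccctggtCccgaagcagggggt
PLXNA3 (PDCD4, score 7, 96 nt before the exon, chrX:154460047-154460075, plus strand): tcctctctccctgtCacggtggccatctg
LTBR (IgG, score 6, 10 nt before the exon, chr12:6388776-6388804, plus strand): cacccatttcattcTccattgcaggatcg
RPS4X (IgG, score 6, 13 nt before the exon, chrX:72275723-72275751, minus strand): cagtgattatcattTttaacgttacaggc
F3 (IgG, score 6, 52 nt before the exon, chr1:94540406-94540434, minus strand): tatacatcaatacaTtcgagtgctctgaa

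HSP90AB1 encodes a cytosolic HSP90 chaperone, KRT7 a simple epithelial keratin, HCFC1 a chromatin-associated transcriptional coregulator and PLXNA3 a semaphorin receptor. CAPN15 is a calpain-type protease, RAB11FIP5 an adaptor of recycling endosomes, LTBR the lymphotoxin beta receptor, RPS4X a protein of the small ribosomal subunit and F3 tissue factor, which starts blood coagulation. In HSP90AB1 the site fell on the last nucleotide of a 136-nt intron, so that the next letter is exonic, and in CAPN15 it fell 3 nt before the exon, on the nucleotide before the AG. The last 5 letters of that CAPN15 intron are the same as those at the end of the upstream exon. The part of spliced RNA in the cDNAs of these 2 sites was not tested. The ENSG00000283907 site had the highest score of all members, 16 cDNAs, but the 30 nt that follow it occur 5 times in the genome, so its cDNAs could have come from other copies. For 95.8% of members in either list the 30 nt that follow occur a single time. The highest IgG member had a score of 6. A score greater than 5, the threshold named in the methods, was reached by 27 PDCD4 members (1.03%) and 8 IgG members (0.52%), against 0.67% and 0.47% of the intronic sites further from a 3′SS.

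The region before the 3′SS held a larger share of intronic sites in the PDCD4 list than in the IgG list. Members made up 3.34% (3.21% to 3.46%) of 78866 intronic PDCD4 sites and 2.11% (2.01% to 2.21%) of 73526 intronic IgG sites, a log2 ratio of 0.66 (0.57 to 0.75). Of all listed sites, members took 1.66% and 1.39%, and the log2 ratio was 0.25 (0.16 to 0.34). The difference between these ratios follows from the larger exonic part of the PDCD4 list, and both denominators are therefore given. The window covers 1.48% of the intronic positions of the 14416 genes with a listed site, and sites per position were higher in it than in the rest of introns by 1.20 (1.14 to 1.25) on the log2 scale for PDCD4 and by 0.52 (0.44 to 0.59) for IgG. The opposite end of introns gave similar values. The first 100 nt after a 5′ splice site (5′SS) held 2595 PDCD4 and 1600 IgG sites, or 3.29% and 2.18% of intronic sites (log2 ratio 0.60, 0.51 to 0.69). Set against each other over sites near only 1 of the ends, the 3′ to 5′ balance differed between the lists by 0.07 (-0.06 to 0.20) on the log2 scale, an interval that includes 0.

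Members were spread thinly. The 2631 PDCD4 members carried 6976 cDNAs and lay at 2338 junctions of 1790 genes, and 91.4% of these junctions had a single member. The 1550 IgG members carried 3876 cDNAs at 1464 junctions of 1256 genes, 95.3% of which had a single member. At most 16 members shared a junction for PDCD4 and 5 for IgG. The lists had 5 member positions, 77 junctions and 411 genes in common. These were 3.29% of the PDCD4 and 5.26% of the IgG junctions, and 23% of the PDCD4 and 32.7% of the IgG genes. Positions crosslinked with IgG were taken out of the PDCD4 replicates by the authors, which lowers such overlaps. Genes annotated as protein-coding held 95.8% of the PDCD4 and 95.6% of the IgG members. The 3′SS was that of the Ensembl canonical transcript for 79.3% and 73.2% of members.

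Along the window, sites were densest at -1, the last nucleotide of the intron, and at -3, and again high over the polypyrimidine tract. In the PDCD4 list -1 had 132 sites, -2 had 56 and -3 had 96, whereas -4 had 14 and -5 had 51. The IgG list had 49, 23, 39, 10 and 34 sites at these positions, so that -5 exceeded -2 there. Position -4 was the lowest of the last 5 nucleotides in both lists. In bins of 10 nt the PDCD4 list fell from 36.0 sites per 100000 available positions at 1 to 10 nt to 24.7 at 11 to 20 nt, 15.9 at 21 to 30 nt and 12.6 at 31 to 40 nt, and rose to 18.8 at 41 to 50 nt. The IgG values for these bins were 19.4, 14.9, 9.55, 7.66 and 9.24. Every bin of 10 nt had more PDCD4 sites relative to the intronic total of its list. The log2 ratios ran from 0.39 at 61 to 70 nt to 0.93 at 41 to 50 nt, and all 10 intervals lay above 0. In introns of at least 400 nt, the bins of 20 nt upstream of the window were above 0 too, from 0.25 to 0.53, with intervals clear of 0. Over the whole window the ratio was 0.66 on this scale but 0.25 relative to all listed sites. The single bins were not compared on the latter scale. The last 30 nt held 40.1% (38.2% to 41.9%) of PDCD4 members and 39% (36.6% to 41.4%) of IgG members, so the lists were not distinguishable in this share.

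**Figure D1:**
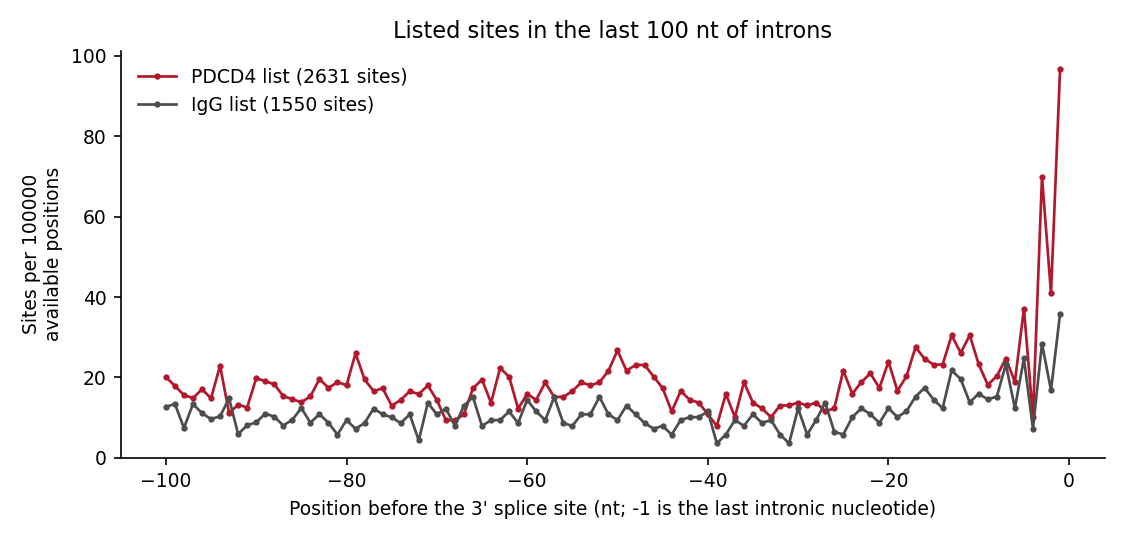
Sites per 100000 available positions (vertical axis) at each nucleotide of the last 100 nt of introns (horizontal axis, -1 is the last intronic nucleotide) for the PDCD4 list (red) and the IgG list (grey). Both lines peak at -1 and -3 with 132 and 96 PDCD4 sites and 49 and 39 IgG sites, dip at -4, and are raised again over the tract.

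In introns of at least 400 nt, the density of sites in the last 20 nt was compared with that in the 100 nt upstream of the window, at the same 3′SS. It was higher by 1.11 (0.98 to 1.24) on the log2 scale in the PDCD4 list, with 666 sites against 1565, and by 0.82 (0.66 to 0.99) in the IgG list, with 393 against 1126. Between 21 and 40 nt, where branch points usually lie, the same comparison gave -0.01 (-0.19 to 0.16) and -0.16 (-0.38 to 0.06). Over the whole 100 nt it gave 0.40 (0.30 to 0.49) and 0.22 (0.10 to 0.33). The PDCD4 list exceeded the IgG list in the rise of the last 20 nt by 0.29 (0.07 to 0.50). With the last 3 nucleotides set aside, the same difference for 4 to 20 nt was 0.04 (-0.20 to 0.28), an interval that includes 0. The first 20 nt after the 5′SS were instead less dense than the second 100 nt of the intron, by -0.24 (-0.40 to -0.07) for PDCD4 and -0.54 (-0.76 to -0.32) for IgG.

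**Figure D2:**
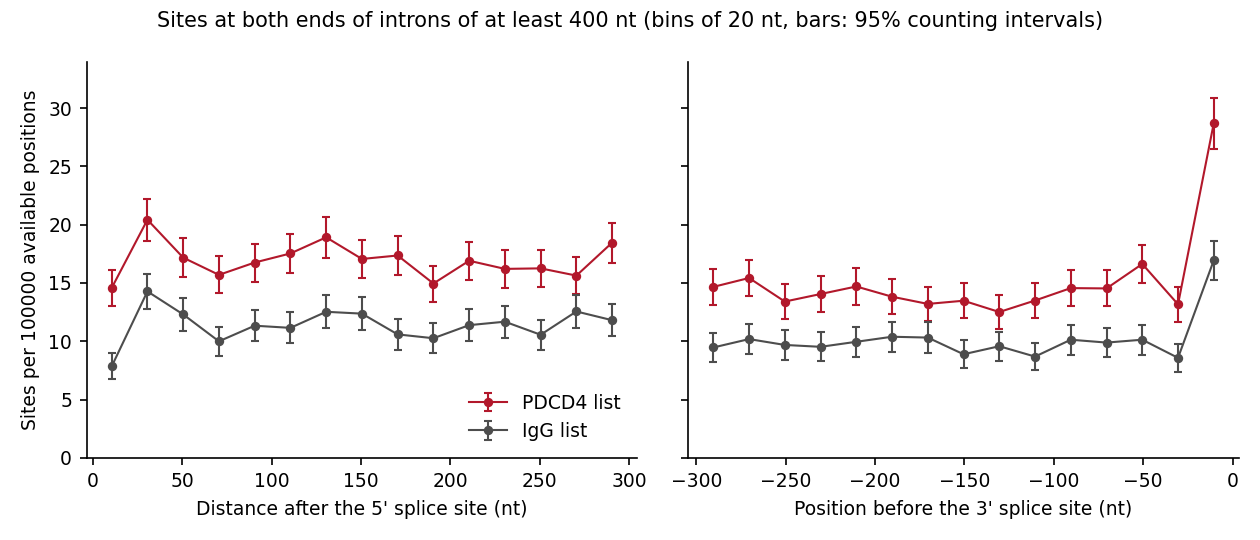
Sites per 100000 available intronic positions in bins of 20 nt after the 5′SS (left) and before the 3′SS (right) in introns of at least 400 nt, for PDCD4 (red) and IgG (grey), with bars for 95% counting intervals. The last bin before the 3′SS reaches 28.7 for PDCD4 and 16.9 for IgG, while the first bin after the 5′SS is at 14.6 and 7.84.

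The lists thus differed most on the nucleotides touching the exon. The last 3 nt held 284 PDCD4 and 111 IgG sites, 10.8% (9.67% to 12%) and 7.16% (5.98% to 8.55%) of members, and their log2 ratio of intronic shares was 1.25 (0.94 to 1.57). The ratio was 0.54 (0.38 to 0.71) at 4 to 30 nt and 0.64 (0.52 to 0.75) at 31 to 100 nt. Counted within members, the last 3 nt against 4 to 100 nt were higher in the PDCD4 list by 0.65 (0.32 to 0.98). By contrast, 4 to 30 nt against 31 to 100 nt differed between the lists by -0.09 (-0.29 to 0.11), with an interval around 0.

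Sites on the last 3 nt came more often from genes whose listed cDNAs are mostly exonic. Of PDCD4 members there, 57.8% (52.0% to 63.4%) lay in genes with over 50% of their PDCD4 cDNAs in exons, compared with 37.7% (34.3% to 41.2%) at 4 to 30 nt and 39.8% (37.4% to 42.3%) at 31 to 100 nt. For IgG these shares were 45.5% (36.5% to 54.8%), 18.0% (14.9% to 21.7%) and 20.6% (18.2% to 23.3%). The junctions behaved alike. A PDCD4 site also lay in the first 50 nt of the following exon at 21.5% (17.0% to 26.7%) of 275 junctions with a member in the last 3 nt, at 10.5% (9.27% to 11.9%) of 2063 junctions with members further away only, and at 9.99% (9.69% to 10.3%) of 36149 other junctions of the same genes. The IgG values were 10.8% (6.29% to 18.0%) of 111, 4.51% (3.53% to 5.75%) of 1353 and 3.97% (3.74% to 4.21%) of 26135. The part of spliced mRNA, or of a cDNA end displaced from the exon, in the sites of the last 3 nt was not tested.

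**Figure D3:**
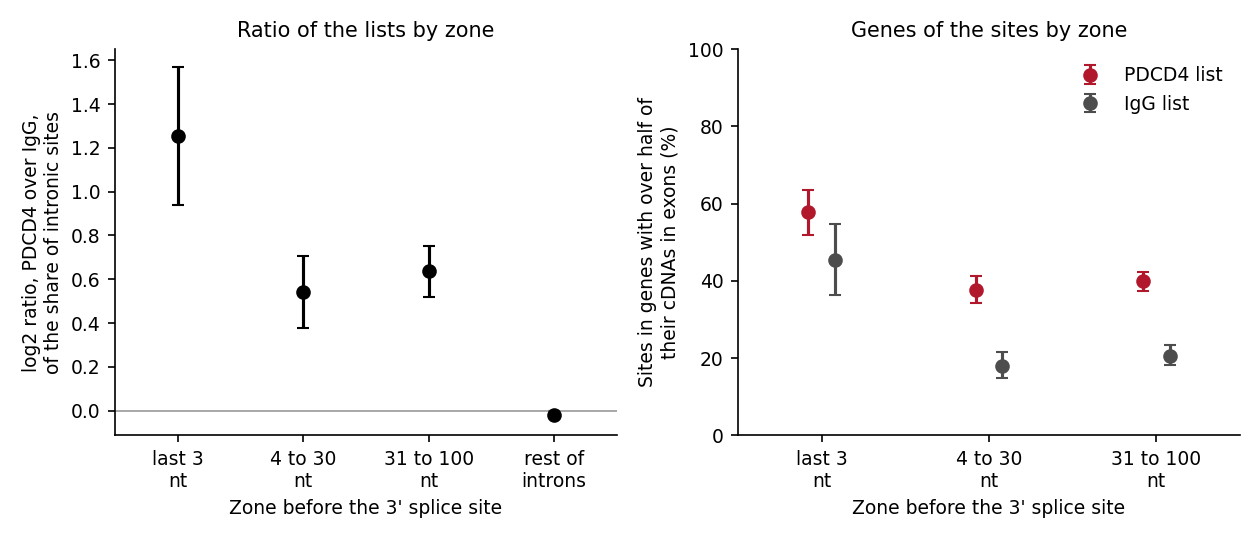
Left, log2 ratio of the PDCD4 to the IgG share of intronic sites by zone before the 3′SS, and right, percentage of members in genes with over 50% of their listed cDNAs in exons (PDCD4 red, IgG grey), with 95% intervals. The last 3 nt stand above the other zones in both panels, at 1.25 on the left and at 57.8% and 45.5% on the right.

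A cDNA of spliced RNA can be placed on an intron end when the letters from the site to the exon repeat the end of the upstream exon. This is always so at -1, where no letter stands between the site and the exon. At -2 the letters were shared for 26 of 56 PDCD4 sites (46.4%, 34% to 59.3%) and 12 of 23 IgG sites (52.2%, 33.0% to 70.8%), below the 84.5% of all annotated junctions. At -3 they were shared for 58.3% (48.3% to 67.7%) and 64.1% (48.4% to 77.3%), against 62.5% of junctions. From -4 to -10 they were shared for 0 of 210 PDCD4 sites and 1 of 156 IgG sites, where 3.48% and 3.26% of junctions at the same distances do so. Apart from that 1 IgG site, the sites from -4 to -10 were therefore followed by letters that the upstream exon does not repeat.

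Uracil was the most frequent crosslinked base beyond the last 3 nt. Over the whole window it made up 42.9% (41.03% to 44.8%) of PDCD4 and 48.1% (45.6% to 50.6%) of IgG members, against 33.6% and 34.8% at the same distances in annotated introns. At 4 to 30 nt, over the tract, uracil reached 56.1% (52.6% to 59.6%) and 59.0% (54.6% to 63.3%), against 46.6% and 46.8%. At 31 to 100 nt it was 42.1% (39.7% to 44.6%) and 46.8% (43.7% to 50.01%), against 31.3% for both. Adenine was under-represented at 31 to 100 nt, with 11.1% and 11.9% where annotated introns have 26.4%. In intronic sites outside the window uracil was at 50.3% for PDCD4 and 53.7% for IgG, between its values at 31 to 100 nt and at 4 to 30 nt. Within the window, the odds of uracil beyond the last 3 nt were lower in the PDCD4 list than in the IgG list by -0.25 (-0.44 to -0.06) on the log2 scale. The junctions with members were themselves poorer in uracil in the PDCD4 list. At the members' distances, all positions of these junctions had 42.1% uracil for PDCD4 and 45.9% for IgG at 4 to 30 nt. At 31 to 100 nt they had 28.9% and 31.3%. The part of this in the lower odds was not tested. On the last 3 nt the bases were those of the splice site itself, with guanine at 131 of 132 PDCD4 sites at -1 and adenine at all 56 sites at -2.

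Around sites beyond the last 3 nt, uracil was highest 1 nt after the listed position, at 52.5% for PDCD4 and 58.4% for IgG, falling away within 3 nt on either side. At 3 nt before and after the listed position PDCD4 sites had 34.5% and 34.6%, against 35.5% and 35.1% in annotated introns. At 1 nt after the listed position guanine plus cytosine dropped to 17.3% for PDCD4 and 14.5% for IgG. Away from the site the lists separated in base composition, since 10 nt upstream guanine plus cytosine was 46.0% for PDCD4 and 41.4% for IgG, and 10 nt downstream 47.8% and 42.5%.

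**Figure D4:**
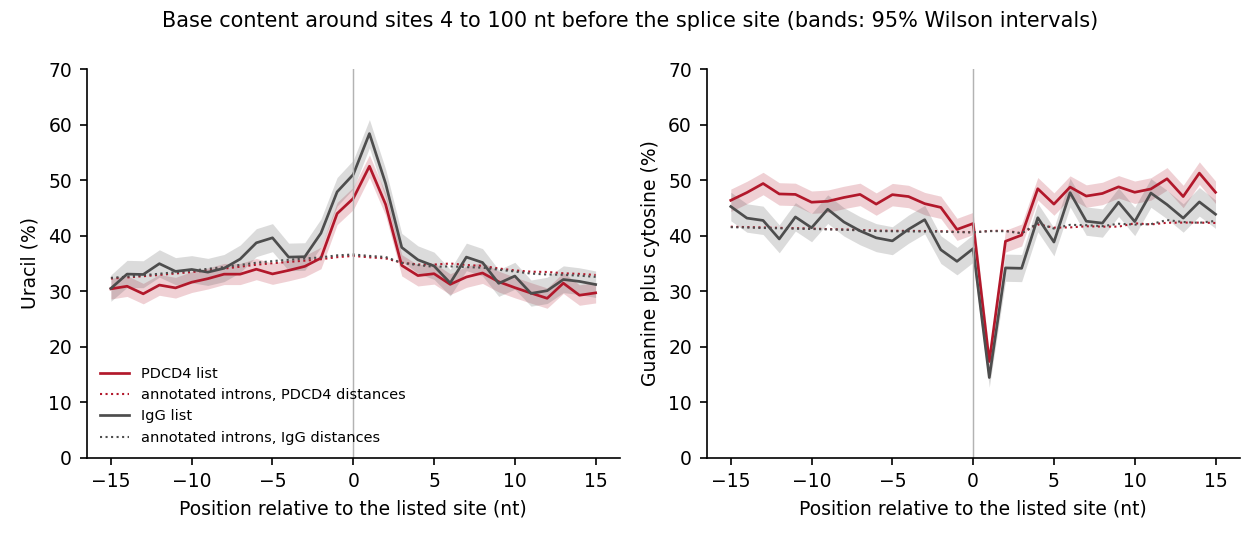
Percentage of uracil (left) and of guanine plus cytosine (right) from 15 nt before to 15 nt after sites 4 to 100 nt before the 3′SS, with 95% Wilson bands, for PDCD4 (red) and IgG (grey); dotted lines are annotated introns at the same distances. Uracil peaks at 52.5% and 58.4% 1 nt after the site, and the flanks of the PDCD4 sites are richer in guanine plus cytosine.

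Short motifs were counted in the 21 nt centred on each member, on the transcribed strand and as the reverse complement, beside all windows at the same distances in annotated introns. A run of TTTTT, written as DNA, was present around 33.0% (29.8% to 36.4%) of PDCD4 and 35.1% (31% to 39.4%) of IgG members at 4 to 30 nt, against 20.6% and 20.6% of annotated windows. GGG was present around 34.7% (32.4% to 37.1%) of PDCD4 members at 31 to 100 nt and 26.7% (24.0% to 29.7%) of IgG members, against 22.3% of annotated windows. Its reverse complement in the same zone was present around 26.3% (24.2% to 28.5%) and 16.7% (14.5% to 19.2%), against 19.03%. Both directions of GGG were thus more frequent in the PDCD4 list at 31 to 100 nt, beside its higher guanine and cytosine content. Nearer the exon GGG on the transcribed strand was not, at 8.05% (6.33% to 10.2%) for PDCD4 and 9.13% (6.89% to 12%) for IgG at 4 to 30 nt, and at 9.51% (6.62% to 13.5%) and 18.9% (12.7% to 27.2%) around sites of the last 3 nt. TCTT, a pyrimidine motif that can overlap TTTTT, was at 28.3% (25.2% to 31.6%) and 33.5% (29.4% to 37.7%) at 4 to 30 nt, with 30.8% and 30.9% in annotated windows. CTCTCT was rare, at 1.98% and 1.10% over the whole window against 1.62% and 1.64%. At 4 to 30 nt it was at 3.77% (2.63% to 5.36%) and 1.62% (0.82% to 3.17%). The branch-point-like CTNAC was at 6.27% (5.41% to 7.26%) and 5.55% (4.51% to 6.80%) over the whole window, against 6.33% and 6.34%. At 4 to 30 nt CTNAC was at 9.61% (7.72% to 11.9%) and 5.68% (3.96% to 8.09%), against 8.97% and 8.74%. At 31 to 100 nt it was at 5.26% (4.27% to 6.48%) and 6.03% (4.68% to 7.73%), against 5.26% and 5.23%, so the lists were not distinguishable there. These matches are letters in a window, not binding sites.

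PDCD4 members lay in shorter and more GC-rich introns than IgG members. The median guanine plus cytosine content of the last 100 nt was 47% (quartiles 34% and 59%) over junctions with a PDCD4 member, 40% (31% and 55%) over those with an IgG member and 40% (31% and 53%) over all 181649 annotated junctions of genes with a listed site, of which 99.7% end in AG. Introns shorter than 100 nt gave no such value. The first 50 nt of the following exon followed this order, with medians of 52%, 48% and 48%. The median intron was 1172.5 nt long for PDCD4, 1636.5 nt for IgG and 1624 nt in the annotation. Medians over the positions from -20 to -3 did not separate them, with 77.8% pyrimidines and 44.4% uracil in all 3 sets. The mean content did differ at 4 to 30 nt, taken at the members' distances. There the junctions with a PDCD4 member had 42.1% uracil and 29.3% cytosine, and those with an IgG member 45.9% and 26.0%. Introns shorter than 150 nt held 222 PDCD4 and 92 IgG members, 8.44% (7.44% to 9.56%) and 5.94% (4.86% to 7.22%), a log2 ratio of 0.51 (0.16 to 0.86). The ratio declined with length, to 0.37 from 150 nt to below 500 nt, 0.10 up to 2000 nt, -0.28 up to 10000 nt and -0.54 (-0.83 to -0.26) in introns of at least 10000 nt. In an intron shorter than 200 nt a member can also lie within 100 nt of the 5′SS, which was the case for 255 PDCD4 and 106 IgG members.

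At the level of genes, summed cDNAs before 3′SS were scaled to 10000 cDNAs of each list, and a log2 ratio was taken after adding 1 cDNA to each sum. A member was listed in 2635 genes, and 131 of them had at least 10 such cDNAs over both lists. Of these, 54 were at least 2-fold higher in PDCD4, which is 41.2% of the genes compared, and 15 at least 2-fold lower, which is 11.5%. The minimum was set on unscaled cDNAs, of which members carried 6976 for PDCD4 and 3876 for IgG. It can therefore favour genes with more PDCD4 cDNAs. Of the genes compared, 28 had no IgG member and 1 had no PDCD4 member. The part of the minimum in the counts of 54 and 15 was not tested. The median ratio was 0.55, and 86 genes were above 0. Over all listed sites of the same 131 genes the median was 0.50, close to that before 3′SS. Summed over all members, whatever their gene, the cDNAs gave a ratio of 0.28. Scaling to intronic cDNAs instead raises every ratio by 0.44, to a median of 0.99, and gives 64 genes higher and 8 lower, so signs near 0 are relative to the scale used. The sums are not divided by length or by the number of junctions, so they order genes by cDNAs and not by density. RNA abundance was not used here, so more pre-mRNA and more crosslinking per pre-mRNA cannot be told apart.

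PLEC encodes plectin, a linker of intermediate filaments to hemidesmosomes, and had the most cDNAs before 3′SS. It had 82 cDNAs at 27 PDCD4 members, against 3 cDNAs at 1 IgG member, a log2 ratio of 3.81. Over all its listed sites PLEC had 4278 and 193 cDNAs, a ratio of 3.90, so its intron ends and its whole transcript differed between the lists to a like extent. Of its PDCD4 members, 16 with 51 cDNAs lay before the same 3′SS, the end of an intron of 1110 nt, with scores from 1 to 7 between 9 and 64 nt from the exon and no IgG member. Another 2 lay on the last 3 nt of a 108-nt intron, 8 cDNAs at -1 and 1 at -3. The remaining PLEC members were 3 at 1 junction and pairs at 3 others. Of 34 annotated PLEC junctions, 6 thus had a PDCD4 member.

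Genes of the basement membrane and its receptors followed with members spread over many junctions. LAMA5, the alpha-5 laminin chain, had 59 cDNAs at 19 members of 15 junctions in PDCD4 and 13 cDNAs at 4 members in IgG, a log2 ratio of 1.53. Its PDCD4 scores ran from 1 to 5 and none of its junctions had more than 2 members. ITGB4, the integrin beta-4 subunit of hemidesmosomes, had 34 cDNAs at 10 members and 7 cDNAs at 3 members, a ratio of 1.56. LAMB3, a chain of laminin-332, had 14 cDNAs at 5 members and 10 at 4 members, a ratio of -0.12, unlike LAMA5 and ITGB4, although over all its sites LAMB3 stood at 1.14. KRT7 had 48 cDNAs at 13 members of 4 junctions and 13 cDNAs at 4 members of the same number of junctions, a ratio of 1.24.

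Several genes had PDCD4 members and no listed IgG member, which was the case for 28 of the 131 genes compared. Their ratios rest on the added cDNA, so counts are given. FASN, the fatty acid synthase, had 23 cDNAs at 6 members. MIRLET7BHG, the host transcript of let-7 microRNAs, had 22 cDNAs at 6 members, 5 of them with 19 cDNAs before a single 3′SS. PKD1, encoding polycystin-1, had 20 cDNAs at 6 members, and FLNA, the actin crosslinker filamin A, had 19 cDNAs at 7 members. All 4 also had IgG cDNAs elsewhere in the gene, with 36, 195, 59 and 96. HSP90AB1 had 13 cDNAs at 4 members, 9 of them on the last 3 nt of the intron whose end is printed above.

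The plexins, receptors for semaphorins, had members in 5 of 7 genes. PLXNA1 had 23 cDNAs at 7 PDCD4 members and 2 cDNAs at 1 IgG member, a log2 ratio of 2.43. PLXNB1 had 23 at 6 and 4 at 1, a ratio of 1.70, and PLXNB2 had 9 at 3 and 3 at 1, a ratio of 0.75. PLXNA3 had 10 at 2 and none listed. PLXNA2 alone lay below 0, with 6 cDNAs at 2 members in each list, a ratio of -0.57. All 5 plexins with a member were compared, 3 of them at least 2-fold higher and none lower, beside 41.2% higher and 11.5% lower over all 131 genes compared.

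The gene with the most IgG cDNAs and no PDCD4 member was ANXA2, the calcium-dependent membrane-binding protein annexin A2, with 20 cDNAs at 7 members of 5 junctions. ANXA2 had 111 PDCD4 and 153 IgG cDNAs over all sites. CEP170B and PXN, the focal adhesion adaptor paxillin, each had 11 IgG cDNAs against 5 PDCD4 cDNAs, a ratio of -1.57. KIF14, a mitotic kinesin, had 9 and 2, a ratio of -2.30, while over all its sites it was at 0.76. SPTAN1, the non-erythrocytic alpha spectrin, had 9 and 3, a ratio of -1.89 beside 1.19 over all sites, so the direction before 3′SS was opposite to that of the gene. These sums are small, and a single site of 3 cDNAs moves them. In F3 both lists had members, but at different 3′SS. The 6 PDCD4 members, with 18 cDNAs, preceded the 3′SS of a 470-nt intron, and the IgG member printed above, with 6 cDNAs, that of a 1168-nt intron with the same 5′SS.

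Of 17 lists of related genes, 11 had a summed ratio above 0, 5 below, and the actins and tubulins had no PDCD4 member, with 7 cDNAs of ACTG1 in IgG. All member cDNAs together had a ratio of 0.28 on this scale. The chromatin regulators (0.27), the chaperones (0.26) and the cadherins, catenins and desmosomes (0.11) were above 0 but below that value. The plakins and AHNAK had 108 PDCD4 and 6 IgG cDNAs, a log2 ratio of 3.602 (2.42 to 4.79), of which PLEC gave 82 and 3. The plexins had 71 and 15, a ratio of 1.68 (0.87 to 2.48). Enzymes of glycolysis and lipid synthesis had 61 and 17, a ratio of 1.28 (0.50 to 2.05), with FASN as the largest part. Keratins had 57 and 19, a ratio of 1.02 (0.27 to 1.77), of which KRT7 gave 48 and 13. Laminins, collagens and integrins had 151 and 53 over 14 genes with a member, a ratio of 0.94 (0.49 to 1.39), the same as over all their sites (0.94). Spectrins, filamins, actinins and myosins had 58 and 26, a ratio of 0.59 (-0.08 to 1.26), or 1.03 (0.36 to 1.70) scaled to intronic cDNAs. The intervals count cDNAs as independent, and counted over sites those of the keratins and of the glycolysis and lipid list reached below 0, at -0.45 and -0.17.

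Other lists lay close to 0 or below it. Cadherins, catenins and desmosomes had 8 PDCD4 and 5 IgG cDNAs, a ratio of 0.11 (-1.50 to 1.72), beside 0.05 over all their sites. The focal adhesion adaptors were at -0.22 (-0.97 to 0.52), with 14 PDCD4 cDNAs in TNS4 and 11 IgG cDNAs in PXN. Ribosomal protein genes had 27 PDCD4 and 29 IgG cDNAs, a ratio of -0.67 (-1.43 to 0.09), whereas over all their sites they were at 0.93. Chaperones had 32 and 18, a ratio of 0.26 (-0.57 to 1.10), against 1.56 over all sites. Translation factors had 27 and 22, a ratio of -0.27 (-1.08 to 0.54), against 0.63. In these 3 lists the cDNAs before 3′SS thus stood below those of the genes as a whole, relative to the same scale.

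Among genes for splicing itself, the factors that recognise the 3′SS had 12 PDCD4 cDNAs at 4 members and 6 IgG cDNAs at 2, a ratio of 0.43 (-0.98 to 1.85), with members in 4 of 16 genes. Over all genes with a listed site, 2635 of 14416 had a member. SF3B3, a subunit of the SF3B complex, had 10 PDCD4 cDNAs at 3 members of 3 junctions and no IgG member, while SF3B1, the subunit that contacts the branch point helix, had 3 cDNAs in IgG only. SR proteins and speckle scaffolds had 12 and 2 cDNAs, a ratio of 2.02 (-0.14 to 4.18), with SRSF6 at 8 PDCD4 cDNAs. The hnRNP genes had 12 and 13, a ratio of -0.68 (-1.82 to 0.45), and PCBP2, a poly(C)-binding protein, had 6 PDCD4 cDNAs at a single member. On this scale none of these 3 lists had an interval clear of 0, whereas scaled to intronic cDNAs the SR proteins and speckle scaffolds were at 2.46 (0.30 to 4.62).

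**Figure D5:**
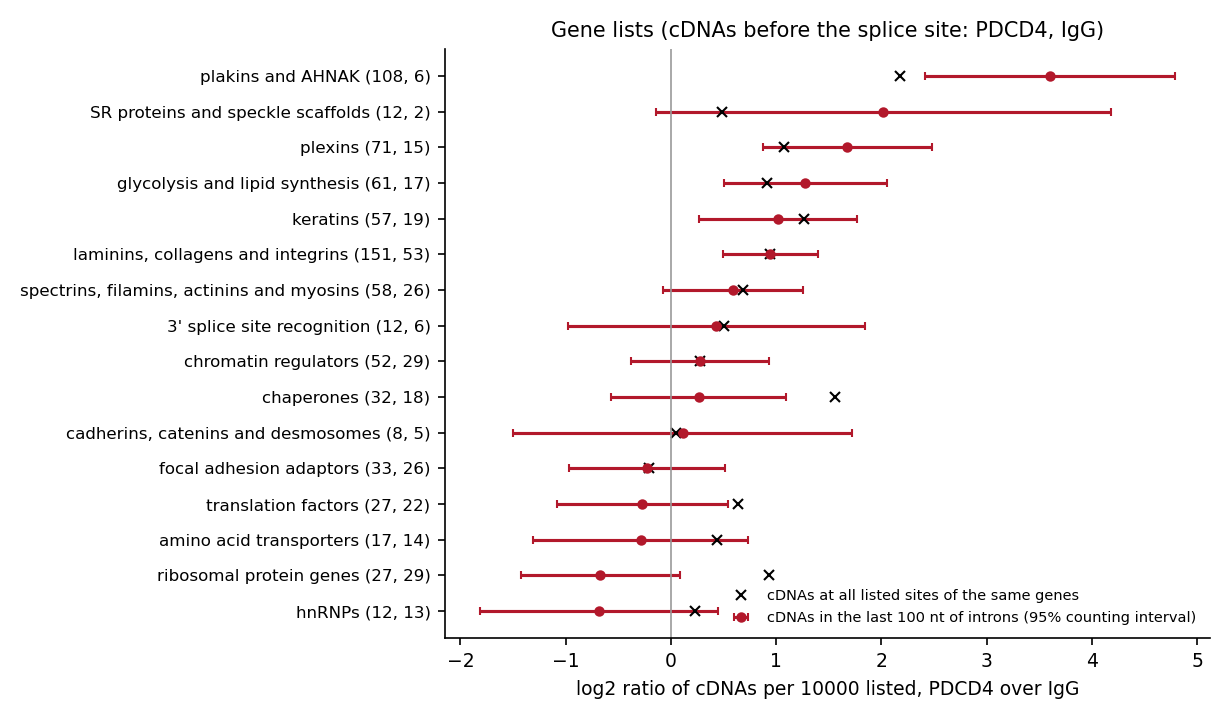
Log2 ratio of cDNAs, PDCD4 over IgG, for lists of related genes: red points are cDNAs in the last 100 nt of introns with 95% counting intervals, crosses are cDNAs at all listed sites of the same genes, and numbers in brackets are PDCD4 and IgG cDNAs before the 3′SS. The plakins and AHNAK stand highest at 3.602, and ribosomal protein genes and hnRNPs lie lowest at -0.67 and -0.68.

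The identity of the cells was checked over all listed sites. Of 11 markers of breast epithelium, not all of them basal, all 11 had cDNAs in the PDCD4 list (2353 cDNAs) and 10 in the IgG list (827). KRT7 alone gave 808 and 267 of these cDNAs, KRT5 gave 352 and 74, KRT17 gave 37 and 18, and KRT14 gave 3 and 0. The totals therefore speak for epithelium and not for its basal type. None of 4 leukocyte, 3 endothelial and 2 hepatocyte markers had a listed site in either list.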

How the data were processed

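The data were iCLIP libraries from MCF10A cells, 2 immunoprecipitated with PDCD4 antibody and 2 with IgG. Per the methods, the authors mapped reads with iCount to the genome of Ensembl release 88 (GRCh38), subtracted IgG crosslink positions from each PDCD4 replicate ahead of peak calling, and merged replicates. The deposited lists give raw cDNA counts per 1-nt site, summing to 409308 for PDCD4 and 276139 for IgG, and hold only sites past the false discovery rate filter. The methods' filter on scores greater than 5 is not applied in the deposited lists and was not applied here. The settings for duplicate removal and for mapping reads across junctions are not given in the sources used here, and the latter decide how cDNA ends next to a splice site are placed.

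Sites were annotated with GENCODE release 44 on the same strand. Where several introns ended within 100 nt, the nearest 3′SS was used, and the gene was the one in the authors' label where possible. Available positions were intronic positions at each distance in genes with a listed site. Densities used introns of at least 400 nt. Shares have 95% Wilson intervals, and log2 ratios have 95% intervals from the counting error of the counts involved. Genes with at least 10 member cDNAs were compared with a pseudocount of 1, and 2-fold differences were counted without a test. The members and the gene lists were chosen with earlier results of these data known. Named genes were the 10 with the most PDCD4 and the 5 with the most IgG member cDNAs, the 5 largest and 5 smallest ratios, the genes of the highest-scoring sites, and up to 3 genes per list, of which 1 gene is not reported here; CAPN15 was chosen after its values were seen, as an example at -3. Printed sites were sorted by score and then by chromosome. The statistics were tested on simulated data. The simulated gene sums were larger than the real ones and had equal list totals, so errors of the 2-fold counts at the real depth were not tested. Software was matplotlib 3.10.9, pyfaidx 0.9.0.4, scipy 1.17.1, pandas 2.3.3 and numpy 2.4.6 under Python 3.11.15. RNA-seq, polysome and protein data were not analysed here.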

Additional observations from a re-analysis of the deposited data

How the results depend on the processing

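No paired analysis was possible because each deposited list pools its replicates, and for the same reason no replicate could be left out in turn. The log2 ratio of the share of sites before 3′SS stayed above 0 under all alternatives run. It moved beyond its counting interval to 0.14 (-0.999 to 1.28) for scores greater than 5, which leaves 27 PDCD4 and 8 IgG members, and to 0.36 on canonical transcripts. For scores greater than 5 the density ratio was 0.56 for PDCD4 and 0.75 for IgG, the share in the last 30 nt 37% and 25%, and the uracil share 40.7% and 62.5%, with intervals too wide to compare the lists. Without the last 3 nt the PDCD4 density ratio was 0.27, the share in the last 30 nt 32.8% for PDCD4 and 34.3% for IgG, and the uracil share 46.7% and 51.01%. With the flank moved a further 100 nt upstream the PDCD4 density ratio was 0.28. On canonical transcripts the IgG share in the last 30 nt was 36.4%, and the uracil share 38.9% for PDCD4 and 44.4% for IgG. Genes at least 2-fold higher fell from 54 to 15 with a minimum of 20 cDNAs and to 5 when sites were counted, with 22 and 8 genes compared. Genes lower fell from 15 to 8 with a pseudocount of 5, to 1 with the minimum of 20, to 8 on the intronic scale and to 0 by sites. Calls were higher in PDCD4 for 78.3% of genes called on the main scale and for 88.9% on the intronic scale, which shifts all ratios alike. On that scale the focal adhesion adaptors turned to 0.22, translation factors to 0.17 and amino acid transporters to 0.15 (main value -0.29), and by sites the chromatin regulators turned from 0.27 to -0.044. With 100 nt of exon, exonic sites were found at 16.4% of PDCD4 and 7.58% of IgG junctions with a member, against 11.8% and 4.99% with 50 nt. In the last 5 nt, letters were shared for 37.8% and 35.8% of sites from -2, against 22.7% and 17.4% in the last 10 nt. The other 64 values, among them those with scores of at least 2, summed scores, sites merged within 20 nt, opposite-strand exons, shared positions or the 10 leading genes left out, stayed within their intervals or within 1.5 times the count, as did leaving out PLEC, chosen after seeing the data. Ratios of single gene lists turned in 4 cases, those above, and kept within their interval in 28.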
